A study of Drosophila melanogaster with 27 samples.

Results

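The genes described here are the aminoacyl-tRNA synthetases of Drosophila melanogaster together with asparagine synthetase (AsnS), measured in whole adult males with Affymetrix Drosophila expression arrays. They were chosen by symbol, as the genes whose platform symbol is the 3-letter code of an amino acid followed by RS, with the suffix -m for mitochondrial enzymes, or AsnS itself. Where a gene had several probe sets, the probe set with the brightest mean over the 27 arrays was taken. This gave 33 genes of the 11981 that had a probe set of their own: 18 cytosolic synthetases, 14 mitochondrial synthetases and AsnS. The mean level over arrays was the measured value that the choice used, and it is not tested.

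Each array held RNA from a pool of males. Couples from an outbred base population founded 4 inbred lines, which the sample labels number 5, 7, 12 and 15, and each line was split into sublines kept by sib mating for 8 generations. In every line the 3 most depressed sublines (lowest pupa productivity, among those with flies enough for RNA) and the 3 least depressed sublines (highest productivity) were measured, and 3 samples came from the outbred control. The groups were thus most depressed (12 arrays), least depressed (12 arrays) and control (3 arrays), with no treatment or transgene in any of them. Sublines of a line descend from the same couple, and the inbred groups share the base population with the control.

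Aminoacyl-tRNA synthetases join each amino acid to its own tRNA and so supply the ribosome with charged tRNAs. The cytosolic enzymes serve the translation of nuclear messengers. A separate set of nuclear genes encodes most of the enzymes that are imported into mitochondria, where they serve the few proteins of the mitochondrial genome. GlyRS, LysRS, HisRS and ThrRS can serve both compartments and are counted here as cytosolic, by their symbol. Asparagine synthetase makes asparagine from aspartate, with glutamine as the nitrogen donor. In mammals AsnS and many cytosolic synthetases are known targets of ATF4, the transcription factor of the amino acid and endoplasmic reticulum stress responses, whose Drosophila counterpart is crc.

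Values are log2 expression, so a difference of 1 is a change of 2-fold, and levels of different probe sets are not compared. Of the 33 genes, 27 were among the probe sets tested, the 48.7% with the highest maximum over the arrays: all 18 cytosolic synthetases, AsnS and 8 mitochondrial synthetases (AspRS-m, CysRS-m, LeuRS-m, PheRS-m, SerRS-m, TrpRS-m, TyrRS-m and ValRS-m). The remaining 6 (ArgRS-m, AsnRS-m, GluRS-m, IleRS-m, MetRS-m and ProRS-m) were dimmer, and their values come from a fit with no filter. Of the markers of male tissues, 12 of 15 testis genes and 14 of 14 accessory gland genes were among the probe sets tested. A probe set can pass that filter through 1 bright array, so this does not check the label of single arrays. The mean over the 15 testis genes, relative to their usual level, ran from -0.29 to 0.30 in most depressed arrays. It ran from -0.12 to 0.23 in least depressed and from -0.27 to 0.01 in control arrays. The median over 19 eggshell, yolk and oocyte genes was 2.23, 3.68 and 1.76 above their usual level in 3 most depressed arrays (line 5 replicate 3, line 7 replicate 2 and line 15 replicate 2), against -0.73 to 0.38 in the other 24 arrays. The 3 yolk protein genes alone were raised by a mean of over 1 in 8 arrays. These were the same 3, the most depressed replicates 2 of line 5 and 1 of line 12, the least depressed replicates 2 of line 5 and 1 of line 15, and control replicate 3. The yolk mean reached 5.80 in a least depressed and 3.51 in a control array. The main counts are therefore also given without the 3 and without the 8 arrays. Whole flies were measured, so fewer cells of a type and less RNA per cell cannot be told apart.

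AsnS was the member that moved most. It was lower in most depressed than in least depressed sublines in all 4 lines, by 0.92 ± 0.083 on the log2 scale (SE; 1.89-fold; adjusted p = 8.68e-07, limma). In line 5 the most depressed arrays gave 8.33, 7.96 and 7.91 and the least depressed 9.10, 9.16 and 9.34. In line 12 the values were 7.78, 7.47 and 7.58 against 8.70, 8.62 and 8.90. In lines 5 and 12 every most depressed array thus lay below every least depressed array. In line 15 they were 7.93, 7.94 and 7.29 against 8.71, 8.75 and 8.54, again with no overlap. In line 7 they were 8.34, 8.10 and 8.69 against 8.64, 8.89 and 8.95, and there the highest most depressed array (replicate 3) passed the lowest least depressed array. The control arrays, at 7.64, 7.69 and 7.93, lay among the most depressed arrays and below all 12 least depressed arrays.

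**Figure D1:**
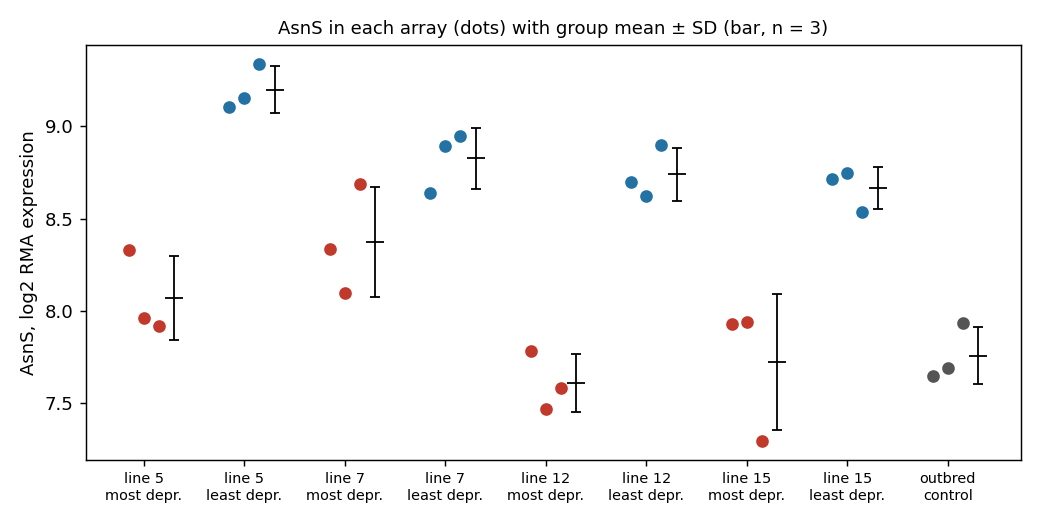
AsnS expression (log2, y axis) in each of the 27 arrays by group (x axis); red dots are most depressed, blue dots least depressed and grey dots control arrays, and the bar beside each group is its mean ± SD (n = 3). The least depressed arrays lie between 8.54 and 9.34, above the control arrays, while the most depressed arrays lie between 7.29 and 8.69.

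Over the 27 arrays AsnS had an SD of 0.573, against 0.0953 (TyrRS) to 0.203 (LeuRS) among the cytosolic synthetases and 0.102 (TrpRS-m) to 0.198 (PheRS-m) among the mitochondrial synthetases tested. In the reference annotation AsnS lies within the span of chb, a microtubule-associated protein gene. The probe set of chb changed by -0.04 ± 0.039 between most and least depressed sublines (adjusted p = 0.541).

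Most of the cytosolic synthetases moved in the same direction as AsnS, with smaller changes. Between most and least depressed sublines 13 of the 18 fell and 1 rose, whereas 9.04% of all probe sets tested fell and 6.39% rose. The median change of the 18 was -0.21, against -0.01 over all probe sets. Of the 18, 15 were lower in most depressed sublines in all 4 lines, as were 17.4% of the probe sets tested. In 3 or more lines every most depressed array lay below every least depressed array for 7 of the 18, and for 3.11% of the probe sets tested.

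AlaRS, the enzyme for alanine, had the largest fall of the cytosolic set. Its 12 most depressed arrays lay between 7.64 and 8.05 (median 7.87) and its 12 least depressed arrays between 7.97 and 8.41 (median 8.20). It fell by 0.33 ± 0.047 (1.26-fold; adjusted p = 5.67e-05), and in each of the 4 lines the levels did not overlap. Its control arrays, at 7.93, 7.89 and 7.92, lay within the range of the most depressed arrays.

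SerRS, the enzyme for serine, ran from 9.02 to 9.47 in most depressed arrays (median 9.20) and from 9.13 to 9.71 in least depressed arrays (median 9.52). The fall was 0.30 ± 0.045 (adjusted p = 0.000123), with no overlap between levels in 3 lines. GlyRS, the enzyme for glycine, ran from 8.14 to 8.69 (median 8.30) against 8.42 to 8.87 (median 8.53). It fell by 0.27 ± 0.041 (adjusted p = 0.000123), and its levels overlapped across lines but in none of the 4 lines.

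AsnRS, which charges tRNA with the product of AsnS, ran from 8.88 to 9.21 in most depressed arrays (median 9.07) and from 9.12 to 9.42 in least depressed arrays (median 9.34). It fell by 0.24 ± 0.037 (adjusted p = 0.000123) and did not overlap within any of the 4 lines. The cytosolic enzyme for phenylalanine is built of an alpha and a beta subunit, and both of its genes fell. The alpha-PheRS values ran from 7.40 to 7.81 (median 7.57) against 7.65 to 8.02 (median 7.80), a fall of 0.26 ± 0.040 (adjusted p = 0.000163). The beta-PheRS gene fell by 0.22 ± 0.051 (adjusted p = 0.00448).

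The other cytosolic synthetases that fell were CysRS (by 0.24), GluProRS (by 0.22), LeuRS (by 0.21), TrpRS (by 0.21), HisRS (by 0.19), IleRS (by 0.18) and ValRS (by 0.17). GluProRS is a single protein with both the glutamate and the proline enzyme. LeuRS, the most variable of the cytosolic set, ran from 8.50 to 8.96 in most depressed arrays (median 8.82) and from 8.71 to 9.21 in least depressed arrays (median 9.02), with wide overlap. The changes of ArgRS (-0.15, adjusted p = 0.0636), ThrRS (-0.14, adjusted p = 0.0826), GlnRS (-0.08, adjusted p = 0.261) and LysRS (0.08, adjusted p = 0.507) did not pass the test. The count of synthetases that fell was 13 or 14 when any of the 27 arrays was left out, and 14 without the 3 arrays with egg transcripts or the 8 with yolk transcripts. It was 3 with a code of the sample labels, which largely follows the depression level, as a covariate, and 0 and 1 among arrays of like code.

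TyrRS was the exception, and also the least variable cytosolic member. Its most depressed arrays ran from 8.84 to 9.07 (median 8.97) and its least depressed arrays from 8.73 to 8.94 (median 8.81). The rise was 0.14 ± 0.035 (adjusted p = 0.00902), with the same sign in each of the 4 lines. The levels overlapped across lines and within lines 7 and 12, but not within lines 5 and 15. Without the 3 arrays with egg transcripts no cytosolic synthetase passed the test as higher. The synthetases fall into a pair of unrelated protein families, class I and class II. Among the cytosolic genes, 5 of 8 of class I fell and 1 rose (TyrRS), and 7 of 9 of class II fell, with medians of -0.17 and -0.24. GluProRS holds a domain of each and was left out of these counts.

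**Figure D2:**
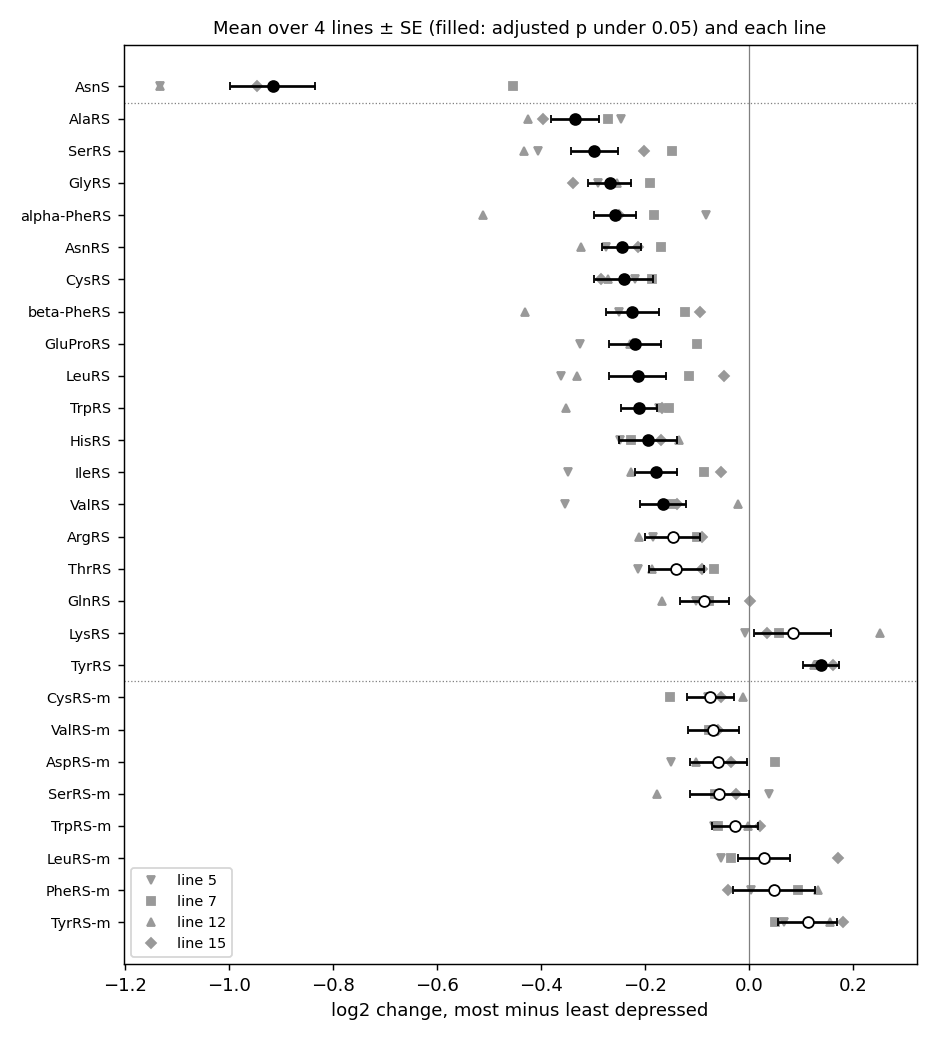
Log2 change from least to most depressed sublines (x axis) for the 27 synthetase and AsnS genes tested (y axis; dotted lines separate AsnS, cytosolic and mitochondrial genes). Black circles are means over 4 lines ± SE, filled at an adjusted p under 0.05, and grey symbols are the single lines. AsnS lies at -0.92, 13 cytosolic synthetases lie below 0 with filled circles, and none of the 8 mitochondrial synthetases has a filled circle.

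None of the 8 mitochondrial synthetases tested passed the test between most and least depressed sublines in limma. Over all probe sets 9.04% fell and 6.39% rose, so a count of 0 of 8 is near the background. None had an unadjusted p under 0.05, as 27.5% of all probe sets did, and their median change was -0.04. The changes lay between -0.07 (CysRS-m) and 0.11 (TyrRS-m), with ValRS-m at -0.07, AspRS-m at -0.06, SerRS-m at -0.06, TrpRS-m at -0.03, LeuRS-m at 0.03 and PheRS-m at 0.05. TrpRS-m, the least variable of them, ran from 10.10 to 10.48 in most depressed arrays and from 10.13 to 10.40 in least depressed arrays. PheRS-m, the most variable, ran from 8.60 to 9.47 and from 8.69 to 9.23, and both its extremes came from the most depressed sublines of line 12.

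Among the 6 dimmer genes, AsnRS-m had a change of -0.25 ± 0.070 and passed the test (adjusted p = 0.0333) in the fit with no filter. Of all 18769 probe sets in that fit, 797 fell and 479 rose. The other 5 in that fit were GluRS-m (-0.16), MetRS-m (-0.14), ArgRS-m (-0.07), ProRS-m (-0.03) and IleRS-m (-0.01), and none of these passed.

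For 7 amino acids a cytosolic and a mitochondrial gene were both tested, which gave 8 pairs because PheRS has a pair of cytosolic subunits. In 7 of the 8 pairs the cytosolic change lay below the mitochondrial change. The cytosolic and mitochondrial changes were -0.24 and -0.07 for cysteine, -0.30 and -0.06 for serine and -0.21 and -0.03 for tryptophan. They were -0.21 and 0.03 for leucine and -0.17 and -0.07 for valine. Tyrosine, at 0.14 and 0.11, was the pair in which both lay above 0. The asparagine pair was not among the 8, since its mitochondrial gene was one of the dimmer ones. AsnRS and AsnRS-m had like changes, -0.24 and -0.25, the second from the fit with no filter. The difference within pairs was not tested.

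As a summary of each array, every gene was set relative to its mean over the 27 arrays and averaged over its class. The cytosolic mean was 0.10 ± 0.054 (SD, n = 12) in least depressed arrays and -0.08 ± 0.077 (SD, n = 12) in most depressed arrays, and it was -0.10 ± 0.032 (SD, n = 3) in the control. The mitochondrial mean was 0.01 ± 0.045, 0.00 ± 0.060 and -0.05 ± 0.042 in the same order. In lines 5, 12 and 15 every least depressed array had a higher cytosolic mean than every most depressed array. In line 7 the levels overlapped, with -0.16 to 0.05 in most depressed and -0.01 to 0.09 in least depressed arrays. These means describe the members and carry no test.

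**Figure D3:**
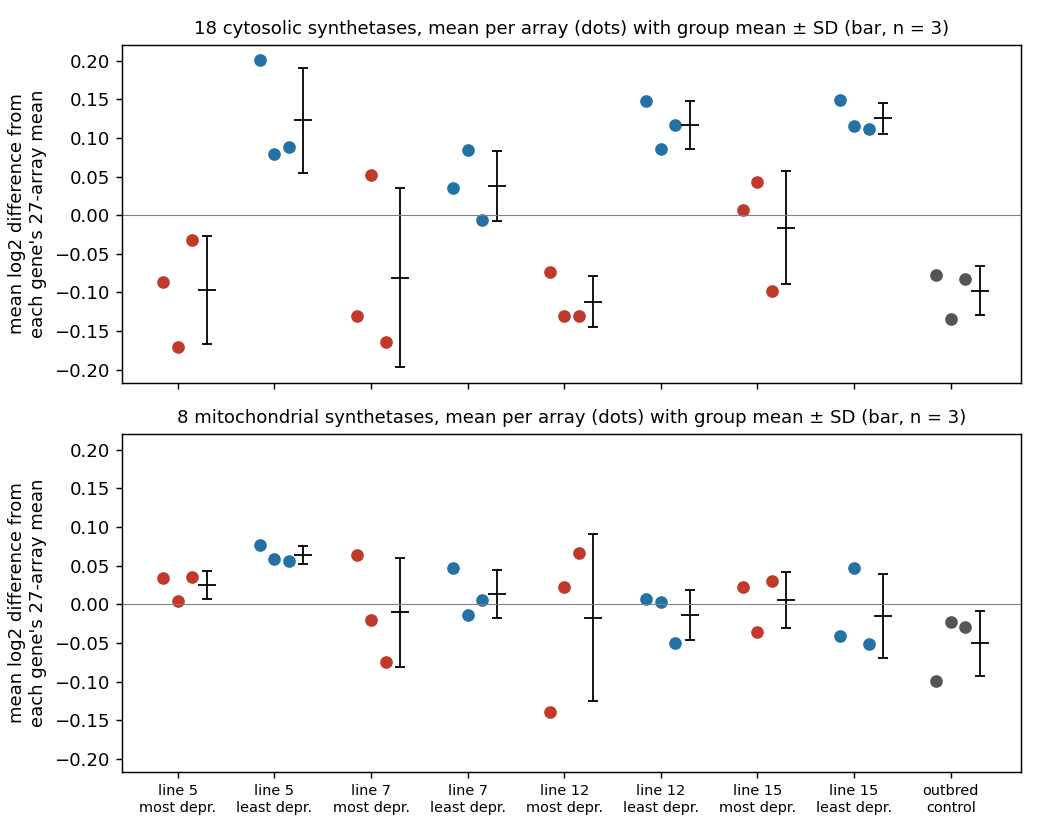
Mean log2 difference from each gene's 27-array mean (y axis) over the 18 cytosolic (top) and the 8 mitochondrial synthetases tested (bottom) in each array by group (x axis); dots are arrays (red most depressed, blue least depressed, grey control) and bars are group means ± SD (n = 3). The cytosolic means of least depressed arrays lie between -0.01 and 0.20 and those of most depressed arrays between -0.17 and 0.05, while the mitochondrial means of these groups overlap.

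The depression levels also differed in a code of the sample labels. The code holds a number over 80 in 9 of 12 least depressed arrays, in 1 of 12 most depressed arrays and in 0 of 3 control arrays, and the sources used here do not say what it stands for. In some of these arrays the number over 80 is joined to a lower one and in others it stands alone, and both kinds were treated alike. With this code as a covariate AsnS fell by 0.99 ± 0.127 (adjusted p = 0.000378). The cytosolic synthetases that fell in that fit were 3 of 18, SerRS (by 0.33), AlaRS (by 0.24) and GlyRS (by 0.24), against 2.92% of all probe sets, and none rose. The other falls kept their sign but did not pass, such as AsnRS with -0.19 ± 0.055 (adjusted p = 0.0603) and TrpRS with -0.17 ± 0.052 (adjusted p = 0.0679).

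Within arrays with no such code, lines 7 and 15 held both levels. The least depressed arrays there were replicate 3 alone in line 7 and replicates 2 and 3 in line 15. AsnS changed there by -0.75 ± 0.171 (adjusted p = 0.157) and none of the 18 cytosolic synthetases passed the test, where 7 of all probe sets tested fell. AlaRS, at -0.25 ± 0.078, and GlyRS, at -0.23 ± 0.088, had unadjusted p values of 0.00766 and 0.0197. Within arrays with the code, line 5 alone held both levels, with 1 most depressed array against 3. That array (replicate 3) is also one of the 3 with egg transcripts, and its spread was taken to be that of the least depressed groups, so the values are given as a description. The differences were -1.29 for AsnS, -0.56 for SerRS and 0.03 for alpha-PheRS. In line 12 the code and the depression level cannot be told apart.

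Within single lines the tests had 3 arrays a side. In line 12 AsnS fell by 1.13 ± 0.165 (adjusted p = 0.00159), as did 6 cytosolic synthetases and 3.55% of all probe sets: alpha-PheRS (by 0.51), SerRS (by 0.43), beta-PheRS (by 0.43), AlaRS (by 0.42), TrpRS (by 0.35) and AsnRS (by 0.32). Without line 12 least depressed replicate 1 the count was 2. In line 5 AsnS fell by 1.13 ± 0.165 (adjusted p = 0.00137), with 3 cytosolic synthetases and 1.31% of all probe sets: SerRS (by 0.41), ValRS (by 0.35) and IleRS (by 0.35). That count was 0 without least depressed replicate 1 or 3 and 1 without most depressed replicate 2 or 3.

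In line 15 AsnS fell by 0.95 ± 0.165 (adjusted p = 0.0103), with AlaRS (by 0.40) and GlyRS (by 0.34) and 1.2% of all probe sets. This count of 2 was 0 without any least depressed array or most depressed replicate 3, and 1 without most depressed replicate 1 or 2. In line 7 AsnS changed by -0.45 ± 0.165 (adjusted p = 0.353), and none of the cytosolic synthetases passed the test, with 5 at an unadjusted p under 0.05. There 0.0109% of all probe sets fell, and 863 of all probe sets tested had an unadjusted p under 0.05. No mitochondrial synthetase tested passed in any line in limma, nor had an unadjusted p under 0.05. With the line by level interaction 0 of the 27 members passed, while 0.0219% of all probe sets did. The interaction had an unadjusted p under 0.05 for AsnS (0.0259) and alpha-PheRS (0.00781), so a difference between lines in these falls was not shown. Of all probe sets tested, 671 had an unadjusted interaction p under 0.05.

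The lines differed in the mean level of 5 of the 27 members, and of 11.8% of all probe sets. They were AsnS (adjusted p = 0.0105), GlyRS (0.00363), ValRS (0.0246), SerRS (0.0326) and ValRS-m (0.0335). GlyRS, the clearest of these, had means of 8.52 ± 0.183 and 8.86 ± 0.013 (SD, n = 3) in the most and least depressed sublines of line 15. Its means in the other 3 lines lay from 8.28 to 8.29 in most depressed and from 8.47 to 8.57 in least depressed sublines. The count of 5 was 3 without line 12 least depressed replicate 3, line 7 least depressed replicate 3 or line 7 most depressed replicate 1.

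Against the outbred control, AsnS and most cytosolic synthetases were higher in the least depressed sublines, while few passed the test in the most depressed. In least depressed sublines AsnS rose by 1.10 ± 0.131 (2.15-fold; adjusted p = 2.28e-06), and 12 of the 18 cytosolic synthetases rose, against 30.7% of all probe sets. In most depressed sublines AsnS changed by 0.19 ± 0.131 (adjusted p = 0.271), 1 cytosolic synthetase rose (ThrRS, by 0.23), against 25.9% of all probe sets, and 2 fell, GluProRS (by 0.27) and GlyRS (by 0.18), against 13.2%. The rise of ThrRS was lost without control replicate 1 or 2, line 5 most depressed replicate 1 or 3, or most depressed replicate 1 of line 7, 1 of line 12 or 2 of line 15. The fall of GluProRS was lost without control replicate 1, and that of GlyRS without any of the control arrays. Both comparisons share the 3 control arrays. The median change of the 18 was 0.25 in least depressed and 0.05 in most depressed sublines, beside 0.12 and 0.10 over all probe sets.

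The 12 that rose in least depressed sublines were ThrRS (0.37), LeuRS (0.36), TrpRS (0.34), alpha-PheRS (0.31), AsnRS (0.30), CysRS (0.29), AlaRS (0.28), GlnRS (0.27), IleRS (0.25), ValRS (0.25), HisRS (0.24) and SerRS (0.22). The 6 that did not pass had changes of 0.12 (ArgRS), 0.09 (GlyRS), 0.05 (beta-PheRS), 0.02 (LysRS), -0.05 (GluProRS) and -0.11 (TyrRS). Of the 12, HisRS no longer passed without any of the control arrays, SerRS without control replicate 1 or 3 and CysRS without control replicate 3. With arrays centred on their median, which lowered the median of all probe sets from 0.12 to 0.05, 8 of the 18 rose and TyrRS fell. That scaling split all called probe sets into 2023 higher and 1671 lower, instead of 2808 and 1380. With the label code as a covariate 4 of the 18 rose (LeuRS, alpha-PheRS, AsnRS and TrpRS), against 15.9% of all probe sets, and AsnS rose by 1.19.

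**Figure D4:**
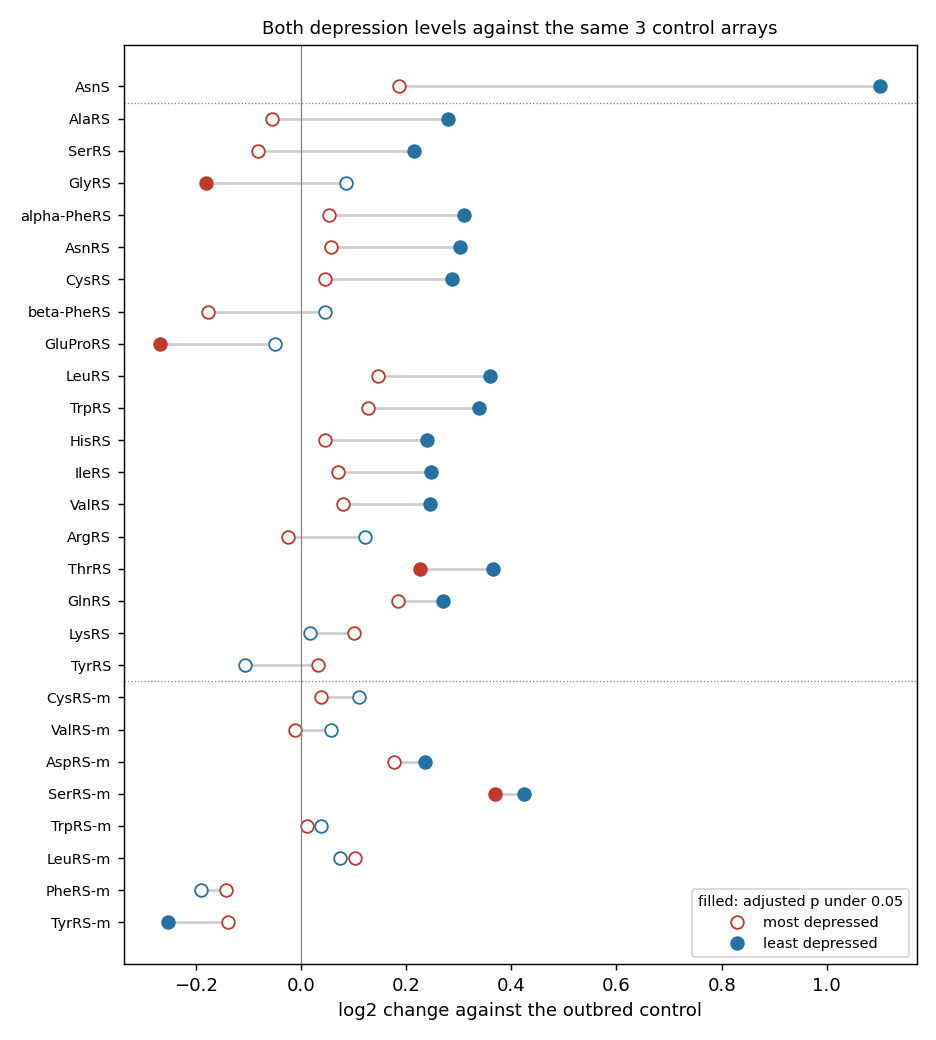
Log2 change against the outbred control (x axis) of the 27 genes tested (y axis; dotted lines separate AsnS, cytosolic and mitochondrial genes), in most depressed (red) and least depressed sublines (blue), filled at an adjusted p under 0.05; both colours use the same 3 control arrays. AsnS lies at 0.19 and 1.10, and 12 cytosolic synthetases are filled in blue against 3 in red.

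With all inbred sublines averaged against the control, 7 of the 18 cytosolic synthetases rose, as did AsnS (by 0.64 ± 0.124; adjusted p = 0.000323) and 29.5% of all probe sets. The share of the 18 was thus near the background. TrpRS, the enzyme for tryptophan, was the clearest: its control arrays gave 8.92, 8.93 and 8.89, its most depressed arrays 8.91 to 9.18 (median 9.03) and its least depressed arrays 9.13 to 9.38 (median 9.27). It rose by 0.23 ± 0.051 (adjusted p = 0.00101). ThrRS, the enzyme for threonine, gave 8.98, 8.93 and 9.13 in the control, 8.98 to 9.38 in most depressed and 9.13 to 9.51 in least depressed arrays. It rose by 0.30 ± 0.079 (adjusted p = 0.00484).

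GlnRS, the enzyme for glutamine, ranged from 8.40 to 8.56 in the control, from 8.34 to 8.87 in most depressed and from 8.59 to 8.90 in least depressed arrays. It rose by 0.23 ± 0.071 (adjusted p = 0.0131). The rest were LeuRS (0.25), AsnRS (0.18), alpha-PheRS (0.18) and IleRS (0.16). Of the 7, 2 passed without control replicate 2, with arrays centred on the median, or with the label code as a covariate, and these were TrpRS and ThrRS. IleRS no longer passed without any of the control arrays, GlnRS without control replicate 1 or 2, and alpha-PheRS without control replicate 2 or 3. Centring gave 2034 higher and 1606 lower calls over all probe sets, instead of 2693 and 1308.

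Of the 8 mitochondrial synthetases tested, 2 rose in inbred sublines, near the 29.5% of all probe sets. One was SerRS-m, which passed the test at both levels. SerRS-m was among the probe sets tested only through inbred arrays, as no control array reached the limit of 7.18. Its rise is therefore given as a description. Its control arrays gave 6.67, 6.53 and 6.80, its most depressed arrays 6.71 to 7.28 and its least depressed arrays 7.00 to 7.25. All least depressed arrays lay above the control, while the lowest most depressed array lay below the highest control array. The rise was 0.40 ± 0.085 in inbred sublines (adjusted p = 0.000825), 0.37 in most depressed and 0.43 in least depressed sublines. The other that rose in inbred sublines was AspRS-m (by 0.21, adjusted p = 0.0486), a call lost on leaving out each of 19 of the 27 arrays in turn. In least depressed sublines AspRS-m rose (by 0.24) and TyrRS-m fell (by 0.25), and neither passed once any of the 3 control arrays was left out. TyrRS-m was among the probe sets tested only through most depressed arrays. In the fit with no filter AsnRS-m (0.49), GluRS-m (0.31) and ProRS-m (0.29) rose in least depressed sublines, as did 3238 of all 18769 probe sets.

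Other parts of the translation machinery were set beside the synthetases. AIMP1, AIMP2 and AIMP3 are the scaffold proteins that hold several cytosolic synthetases in a complex. AIMP2, 1 of the 3, fell by 0.14 between most and least depressed sublines, against 9.04% of all probe sets, and the median of the 3 was -0.10. In least depressed sublines AIMP1 rose by 0.30 and AIMP2 by 0.21 against the control, where 30.7% of all probe sets rose. Of 3 cytosolic elongation factors, eEF1alpha2 alone passed, with a rise of 0.17 between most and least depressed sublines, against 6.39% of all probe sets. The 41 cytosolic ribosomal proteins were taken by symbol and include genes named -like, which may not be ribosomal proteins. Of the 41, 2 fell, RpLP0-like (by 0.33) and RpS12 (by 0.16), fewer than the 9.04% of all probe sets, and the median was -0.04. Of 69 mitochondrial ribosomal proteins 9 fell and none rose, with a median of -0.06, led by mRpL20 and mRpL55 (each by 0.22), a share near the same 9.04%. Of 6 mitochondrial translation factors tested none passed, with a median of -0.01.

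Against the control 26 of the 41 cytosolic ribosomal proteins rose and none fell in inbred sublines. Of the 69 mitochondrial ribosomal proteins 10 rose and 13 fell. Over all probe sets 29.5% rose and 14.3% fell. The mitochondrial translation factors mEFTu1 (by 0.53) and mRRF1 (by 0.34) fell, and gatA, which takes part in forming glutaminyl-tRNA in mitochondria, rose by 0.18.

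Genes of the amino acid response, chosen as a list of sensors, transcription factors, transporters and enzymes, were set beside AsnS. Of 14 tested, 1 passed between most and least depressed sublines: trbl, a tribbles pseudokinase, rose by 0.21, and the median was -0.03. This count is near the background, 6.39% higher and 9.04% lower. In inbred sublines against the control 3 rose and 2 fell, also near the background of 29.5% and 14.3%. Ass, argininosuccinate synthetase, rose by 1.09, and the amino acid transporters JhI-21 and mnd rose by 0.59 and 0.33. The transporter slif fell by 0.70 and Sesn, the sestrin gene, fell by 0.59.

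Markers of some tissues moved with the same contrasts. Between most and least depressed sublines 7 of 14 accessory gland genes fell, led by Acp76A (by 0.45) and Acp29AB (by 0.41), and 4 of 12 gut enzyme genes fell, led by Jon65Aii (by 1.14) and Jon65Ai (by 0.65), against 9.04% of all probe sets. The means over these lists, relative to their usual level, ran from -0.26 to 0.21 and from -0.59 to 0.01 in most depressed arrays, and from -0.07 to 0.24 and from -0.43 to 0.51 in least depressed arrays. Of 4 fat body genes 2 rose, the larval serum protein gene Lsp2 (by 1.37) and Fbp2 (by 1.85), against 6.39% of all probe sets. The mean over the 4 ran from -1.26 to 3.88 in most depressed arrays. It ran from -0.95 to 0.72 in least depressed and from 0.88 to 1.33 in control arrays. No testis or muscle gene passed in limma, of 12 and 8 tested, where 9.04% of all probe sets fell and 6.39% rose. Against the control, 8 of 8 muscle genes fell in inbred sublines, against 14.3% of all probe sets, with a median of -1.07, and the list ran from 0.89 to 1.08 in the control but from -0.82 to 0.83 in most depressed and from -0.74 to 0.46 in least depressed arrays. There 9 of 14 accessory gland genes and 5 of 12 gut enzyme genes rose, against 29.5% of all probe sets. The part of these tissues in the changes of the synthetases was not tested.

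As a description over the 27 arrays, with no test, pairs of cytosolic synthetases had mostly positive correlations. The 153 pairs of cytosolic genes had a median Pearson r of 0.48 (from -0.69 to 0.86), the 28 mitochondrial pairs -0.01 and the 144 mixed pairs 0.04, beside 0.04 over all pairs of probe sets tested. Around the group means the medians were 0.22, -0.01 and -0.03. The arrays share their groups and normalization, which enter these values.

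Of the other members, AsnRS (r = 0.83), LeuRS (0.79), IleRS (0.77), AlaRS (0.76) and TrpRS (0.71) were most like AsnS over the 27 arrays, and TyrRS was at -0.51. Around the group means these values were 0.34, 0.46, 0.34, 0.19, -0.17 and 0.05. Outside the set, the genes most like AsnS over the 27 arrays were Gld (0.86), ERp44 (0.86), CG10472 (0.85), lambdaTry (0.84) and CG10730 (0.82). Gld is glucose dehydrogenase, ERp44 an endoplasmic reticulum protein and lambdaTry a trypsin. The genes most like the mean of the cytosolic members were NHP2 (0.93), eIF2beta (0.92), HDAC1 (0.88), CG11563 (0.87) and CG11555 (0.87). NHP2 is a protein of box H/ACA small nucleolar particles, eIF2beta a subunit of the initiation factor that brings the initiator tRNA to the ribosome and HDAC1 a histone deacetylase.

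TrpRS was the 1 gene with several probe sets. Its brightest had the fall of 0.21 given above between most and least depressed sublines, and the other two changed by -0.10 ± 0.038 (adjusted p = 0.0935) and -0.12 ± 0.079 (adjusted p = 0.342). Against the control all 3 rose in inbred sublines, by 0.23, 0.22 and 0.32.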

How the data were processed

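RNA of whole males was hybridized to 27 arrays. The authors used RMA (background adjustment, quantile normalization and summary of probes), run in Partek version 7.3.3 and in affy, so the deposited values are log2 expression, in a table of 27 arrays and another of the 24 inbred arrays. Quantile normalization gives arrays a like distribution and can hide a shift shared by most genes. In the deposited values the array medians still ran from 6.32 to 6.54. The array maker's controls (183) were left out, which left 18769 probe sets. Present calls were not used here, so the same number of probe sets as the authors kept, those with the highest maximum (at least 7.18), was tested. Gene names come from the platform annotation, and all 33 members matched the reference annotation.

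Group means were fitted over all arrays with limma 3.58.1 in R 4.3.3, with a trend in the variance prior and Benjamini-Hochberg adjustment over all probe sets tested, and an adjusted p under 0.05 was called. All comparisons share a spread over the 9 groups. It pools the spread between sublines, each on 1 array, with that between samples of the outbred control. The paper reported a larger variance in most depressed sublines than in the control, which a shared spread does not follow. Arrays have no read depth, so their number limits the precision. The fit was tested on simulated data with independent noise of the same spread in all groups. These held no label code or egg transcripts, so the simulation does not bear on either. Array values are given for AsnS, for up to 6 members with the smallest p in most against least depressed and in inbred against control, and for the most and least variable member of each class. Other genes come from lists of tissue markers, translation factors and the amino acid response, or are the 5 most like AsnS and the 5 most like the cytosolic mean. The members and lists were chosen with earlier results of these data known. The alternatives within arrays of like label code and without arrays with yolk transcripts were chosen after seeing the data.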

Additional observations from a re-analysis of the deposited data

How the results depend on the processing

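The fall of AsnS between most and least depressed sublines kept its sign in all 40 alternatives run for it (-0.86 to -0.96 without any 1 array). It did not pass in the arrays of lines 7 and 15 with no code over 80, where it was -0.75. The arrays of line 5 with the code hold 1 most depressed array, itself with egg transcripts, and so do not bear on the call. It passed in the other alternatives. The count of cytosolic synthetases that fell was 13, and moved to 3 with the code over 80 as covariate, to 0 within arrays with no such code and to 1 within line 5 arrays with the code, where alpha-PheRS was at 0.033. These within-code settings hold fewer arrays, and the code follows the depression level in most lines, and the cause of the lower counts was not tested. The median change of cytosolic minus mitochondrial synthetases was -0.17, and it ran from -0.19 to -0.14 with any 1 array left out. In every alternative it moved by less than 0.0877, the SD around group means of the cytosolic minus mitochondrial mean of single arrays. This held also without GlyRS, LysRS, HisRS and ThrRS, which can serve both compartments. That SD is of single arrays and not of a median change over groups, so it is a wide limit.

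With the code as covariate the cytosolic counts were 2 higher in inbred and 4 higher in least depressed sublines against the control, 0 lower in line 12, 0 in line 15 and 1 in line 5, and 1 mitochondrial synthetase passed in inbred and 1 in least depressed sublines against the control. With arrays centred on the median, 2 cytosolic synthetases rose in inbred and 0 in most depressed sublines. With array weights 3 rose in most depressed sublines, 1 fell in line 7 and 1 in line 15, and 4 (inbred) and 3 (most depressed) mitochondrial synthetases passed against the control. With no filter 0 cytosolic synthetases rose in most depressed sublines and 0 fell in line 15, and the mitochondrial genes called, which then included the dim ones, were 1 between levels, 6 in least depressed and 2 in most depressed sublines. Of all 18769 probe sets, 479 rose and 797 fell between levels, and 86 fell in line 15. Against the control 3238 rose and 2257 fell in least depressed, and 2658 rose and 1823 fell in most depressed sublines. With the mean of a gene's probe sets 2 cytosolic synthetases rose in most depressed sublines, as did 2325 of all 8787 values tested. Without the 3 arrays with egg transcripts 0 rose in most depressed sublines, 1 fell in line 5 and 1 in line 15, and 1 mitochondrial synthetase passed in inbred sublines.

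Without the 8 arrays with yolk transcripts 14 cytosolic synthetases fell between levels and 4 rose in inbred sublines. Then 0 fell in line 5, 3 in line 12 and 0 in line 15, the lines differed in 2 members, 1 mitochondrial synthetase passed in inbred and 1 in least depressed sublines, and AsnS, at -0.89 in line 5 and -1.03 in line 15, no longer passed there. The replicate numbers of the labels do not pair the sublines (mean r of deviations -0.04 for arrays with the same number and 0.02 for others). With a replicate block the count of 13 stayed at 13, 1 cytosolic synthetase fell in line 15 and 1 mitochondrial synthetase passed in inbred sublines.

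With any 1 array left out, the cytosolic synthetases that rose numbered 2 to 9 in inbred, 0 to 3 in most depressed and 9 to 12 in least depressed sublines. Those that fell numbered 2 to 7 in line 12, 0 to 2 in line 15 and 0 to 4 in line 5. The lines differed in 3 to 7 members, and mitochondrial synthetases passed 1 to 3 times in inbred, 1 to 3 in least depressed and 1 to 2 in most depressed sublines. Counts of single lines and of most depressed sublines against the control thus rest on few arrays. The 3 control arrays and changes of 0.1 to 0.4 log2 units limit all comparisons with the control.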
